A study of Zea mays with 6 samples.

Results

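The genes described here make the plant hormone auxin. They are 4 genes of the YUCCA and TAR families, chosen by identifier: yuc (GRMZM2G091819), Yucca6 (GRMZM2G019515), spi1 (GRMZM2G025222) and TAR3 (GRMZM2G141810). They were followed among the 39448 gene identifiers measured by RNA sequencing in maize (Zea mays) endosperm, the nutritive tissue of the kernel. The groups were 3 libraries of the floury3 (fl3) mutant, whose kernels have a soft, opaque endosperm, and 3 libraries of the wild type (WT), described as independent biological replicates. All came from field-grown plants, with endosperm harvested 10 days after pollination. The sources used here do not give the fl3 allele, the inbred background of each group or the number of kernels behind a library.

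In the main route to auxin, aminotransferases of the TAA and TAR family convert tryptophan to indole-3-pyruvate. Flavin monooxygenases of the YUCCA family then convert indole-3-pyruvate to indole-3-acetic acid, the main natural auxin. The second step is regarded as rate-limiting in Arabidopsis. In the maize kernel, auxin rises as endosperm cells begin endoreduplication and storage filling, and loss of an endosperm-expressed YUCCA gene in the mutant de18 gives small kernels with little free auxin. TAR3 belongs to the first step, while yuc, Yucca6 and spi1 belong to the second.

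Each library has 1 table of FPKM values, that is, fragments mapped to a gene divided by its length and by the library total, as deposited by the authors. FPKM sums ran from 465741 to 477578 in fl3 and from 475761 to 480602 in WT. Between 24184 and 24755 genes had a value above 0 in fl3, against 23808 to 24001 in WT. Sequencing depth is unknown, so values carry no interval for counting error. The labels name no batch. The floury3 gene itself (GRMZM2G006585) lay at 3084 to 3214 FPKM in fl3 and 2100 to 2427 FPKM in WT, a transcript level that does not by itself identify the genotype of a library.

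The 31 listed genes of the starchy endosperm, mostly zein storage proteins, summed to 12670 to 17870 FPKM in fl3 and 34810 to 43510 FPKM in WT. Of these, 28 could be tested, 1 rose and 26 fell, where 43.5% of all tested genes rose and 23.8% fell. The zein z1B_8 was at 0 in all libraries. The 6 listed genes of the embryo-surrounding region summed to 472 to 612 FPKM in fl3 and 142 to 179 FPKM in WT, and all 5 that could be tested rose. Sums overlapped between genotypes for 12 genes of the basal transfer layer, at 3769 to 6974 FPKM in fl3 and 3749 to 5110 FPKM in WT. They also overlapped for 8 embryo genes, at 386 to 449 FPKM in fl3 and 378 to 401 FPKM in WT. The 6 aleurone genes summed to 498 to 524 FPKM in fl3 and 472 to 480 FPKM in WT. Among genes that could be tested, 3 of 11 basal transfer layer genes rose and 1 fell. Of 5 embryo genes 2 rose and 1 fell, and of 6 aleurone genes 2 rose and 1 fell. The 14 genes of green or maternal tissue did not exceed 1.44 FPKM in sum in fl3 or 1.11 FPKM in WT, with PSBQ at 0 throughout. The part of these cell type differences in the results below was not tested. In bulk tissue, fewer cells of a type and less RNA per cell cannot be told apart.

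Setting fl3 against WT asks how each step of auxin synthesis differs in mutant endosperm. The aminotransferase TAR3 fell in fl3, while the flavin monooxygenases yuc and Yucca6 rose. The third flavin monooxygenase, spi1, averaged 0.928 FPKM in fl3 and 0.0456 FPKM in WT. The most abundant of the 4 transcripts was thus a different one in each genotype, yuc in fl3 and TAR3 in WT.

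TAR3 had 23.1, 36.6 and 35.0 FPKM in fl3 replicates 1, 2 and 3, against 164, 169 and 168 FPKM in WT replicates 1, 2 and 3. The WT libraries lay within a few FPKM of each other, and the highest fl3 library was far below the lowest WT library. The mean was 31.6 ± 7.39 FPKM in fl3 and 167 ± 2.72 FPKM in WT (SD, n = 3 each), 5.30-fold lower in fl3. On the log2(FPKM + 1) scale, which understates changes of low genes, the difference was -2.40 (SE 0.15, limma adjusted p = 3.01e-06). Its coefficient of variation was 23.4% in fl3 and 1.63% in WT.

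The YUCCA gene yuc had 642, 543 and 578 FPKM in fl3 replicates 1, 2 and 3, against 102, 99.9 and 98.3 FPKM in WT replicates 1, 2 and 3. All fl3 libraries were above all WT libraries, and the coefficient of variation was 8.58% in fl3 and 1.86% in WT. The mean was 587 ± 50.4 FPKM in fl3 and 100.1 ± 1.86 FPKM in WT (SD, n = 3 each), a 5.87-fold difference and a log2 fold change of 2.54 (SE 0.07, limma adjusted p = 6.85e-08). By mean level, yuc ranked 64th of all 39448 identifiers in fl3 and 747th in WT. TAR3 ranked 2938th in fl3 and 395th in WT.

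Yucca6, the second most abundant flavin monooxygenase of the set, had 48.9, 46.8 and 51.3 FPKM in fl3 replicates 1, 2 and 3, against 17.9, 16.6 and 16.2 FPKM in WT replicates 1, 2 and 3. The genotypes did not overlap, and the libraries of each genotype stayed close together. The rise was 2.90-fold in mean FPKM, with a log2 fold change of 1.48 (SE 0.06, limma adjusted p = 3.77e-07).

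The gene spi1, sparse inflorescence1, is known in maize for its role in forming branches and flowers of the tassel and ear. It had 0.726, 1.04 and 1.02 FPKM in fl3 replicates 1, 2 and 3, against 0.0473, 0.0440 and 0.0453 FPKM in WT replicates 1, 2 and 3. The genotypes did not overlap, with fl3 higher, but both levels were low beside those of the other members. Its mean over the 6 libraries, 0.487 FPKM, was under the minimum of 1 FPKM for testing, so only 3 of the 4 members were tested. The ratio of mean FPKM was 20.4, while the difference of log2(FPKM + 1) was 0.88. In a fit without that minimum this difference passed (limma adjusted p = 0.000105), among 27998 genes of which 50.8% passed. Sequencing depth is unknown, so how few fragments lie behind the WT values, and how firm the ratio is, cannot be said.

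**Figure D1:**
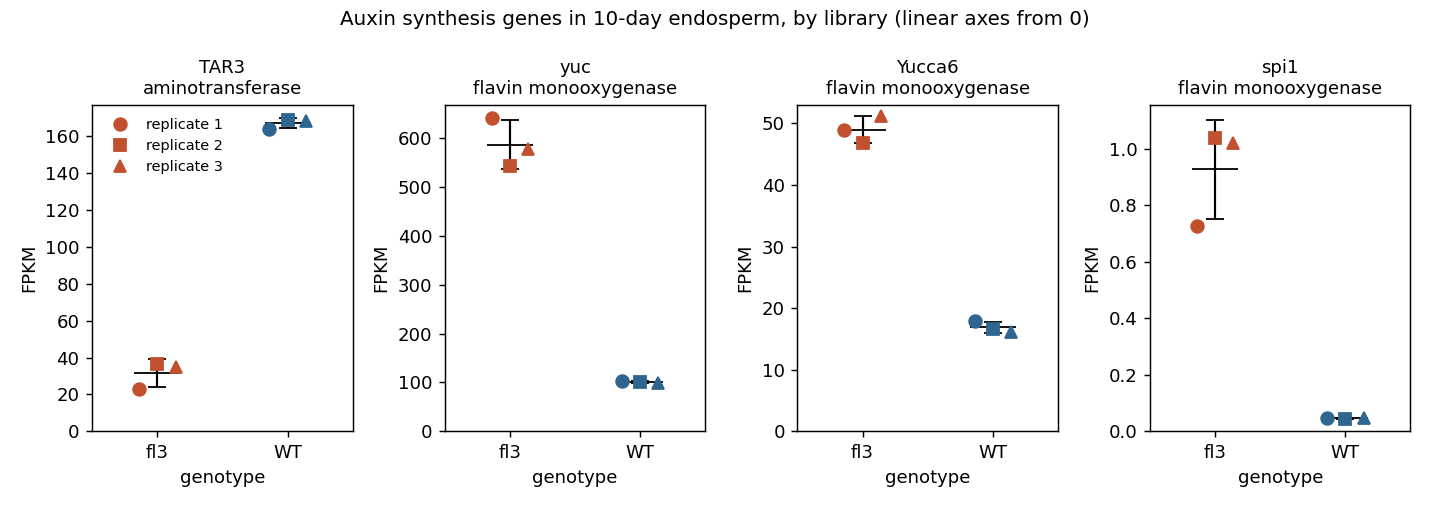
FPKM of TAR3, yuc, Yucca6 and spi1 in each library (symbols, one shape per replicate number) with the mean (long bar) and SD (error bar) of the 3 fl3 and the 3 WT libraries, on linear axes that start at 0 and differ between panels. TAR3 lies at 23.1 to 36.6 FPKM in fl3 and 164 to 169 FPKM in WT, while the other 3 genes lie higher in every fl3 library than in any WT library.

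These calls stand in a comparison in which most genes differed. Of 17272 tested genes 67.3% were called, 43.5% as higher in fl3 and 23.8% as lower, and 71.7% had libraries that did not overlap between genotypes. That the 3 tested members were called, and that no member overlapped, is therefore no result about the members by itself. The sizes of the tested members are given as places in the distribution. They are a description only, since the members were chosen with their results known. The log2 fold change of yuc ranked 118th from the top of the 17272 and that of Yucca6 ranked 675th, while that of TAR3 ranked 110th from the bottom. These places are on the log2(FPKM + 1) scale, which understates changes of low genes. A low gene with a larger ratio of mean FPKM can therefore rank nearer the middle. Over all tested genes the 5th percentile was -0.89, the median 0.14 and the 95th percentile 1.36. Scaling libraries by the median of gene ratios brings that median to 0.002 and changes the split of all calls from 7519 higher and 4107 lower to 5841 higher and 5758 lower. Under it the log2 fold changes were 2.37 for yuc, 1.33 for Yucca6 and -2.56 for TAR3. For each member taken alone, the exact two-sided permutation test of mean FPKM gave p = 0.1, the smallest that 3 libraries against 3 allow.

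**Figure D2:**
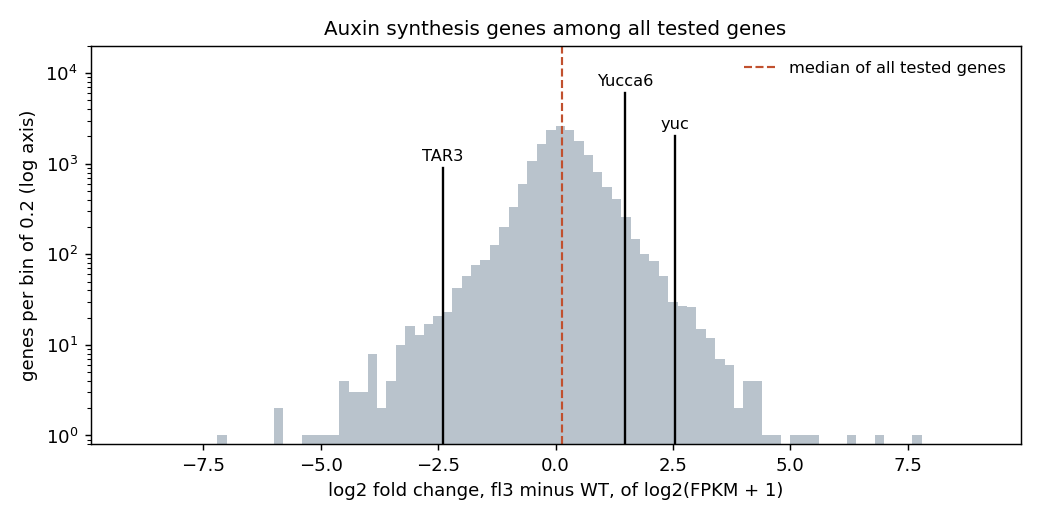
Number of tested genes (log axis, bins of 0.2) by log2 fold change, fl3 minus WT, with the median of all genes as a dashed line and the 3 tested members as black lines, whose heights only make room for the names. On this log2(FPKM + 1) scale, which understates changes of low genes, TAR3 at -2.40 and yuc at 2.54 stand in the sparse outer parts. Yucca6 at 1.48 stands nearer the middle.

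The balance of the steps was described by the ratio of TAR3 to the summed FPKM of yuc, Yucca6 and spi1, which is possible because FPKM is a level per gene length. No test is given for this ratio, since the members were chosen with their results known. There were 0.0334, 0.0620 and 0.0556 FPKM of TAR3 per FPKM of flavin monooxygenase in fl3 replicates 1, 2 and 3, against 1.37, 1.45 and 1.47 in WT replicates 1, 2 and 3. TAR3 was the smaller side in all fl3 libraries and the larger side in all WT libraries. The mean ratio was 0.0503 ± 0.0150 in fl3 and 1.43 ± 0.0539 in WT (SD, n = 3 each), 28.4-fold lower in fl3. Summed over yuc, Yucca6 and spi1 there were 637 ± 51.0 FPKM in fl3 and 117 ± 2.72 FPKM in WT (SD, n = 3 each). The 4 transcripts together came to 715, 627 and 665 FPKM in fl3 and 284, 286 and 283 FPKM in WT, so the levels of the set as a whole were 2.35-fold higher in fl3.

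Among the fl3 libraries, replicate 1 had the lowest TAR3, the highest yuc and the lowest spi1. Yucca6 was not extreme there, at 48.9 FPKM against 46.8 and 51.3 FPKM in fl3 replicates 2 and 3. The starchy endosperm genes were also lowest in replicate 1, at 12670 FPKM against 16600 and 17870 FPKM in fl3 replicates 2 and 3. The embryo-surrounding region genes were highest there, at 612 FPKM against 472 and 504 FPKM. The sums of the basal transfer layer, aleurone and embryo genes in replicate 1 lay between those of fl3 replicates 2 and 3. These are 3 libraries, and how these markers bear on TAR3 and yuc was not tested. Without fl3 replicate 1 the mean ratio of TAR3 to flavin monooxygenase in fl3 was 0.0588.

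The make-up of the summed FPKM of yuc, Yucca6 and spi1 also differed. The share of yuc in this sum was 92.8%, 91.9% and 91.7% in fl3 replicates 1, 2 and 3, against 85.1%, 85.7% and 85.8% in WT replicates 1, 2 and 3. Yucca6 made up 7.71% ± 0.565 in fl3 and 14.4% ± 0.416 in WT (SD, n = 3 each), so its share was lower in fl3 although its level was higher. There were 12.0 ± 0.993 FPKM of yuc per FPKM of Yucca6 in fl3 and 5.94 ± 0.197 in WT (SD, n = 3 each), with no overlap. The share of spi1 stayed under 1% everywhere, at 0.148% in fl3 and 0.0389% in WT.

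**Figure D3:**
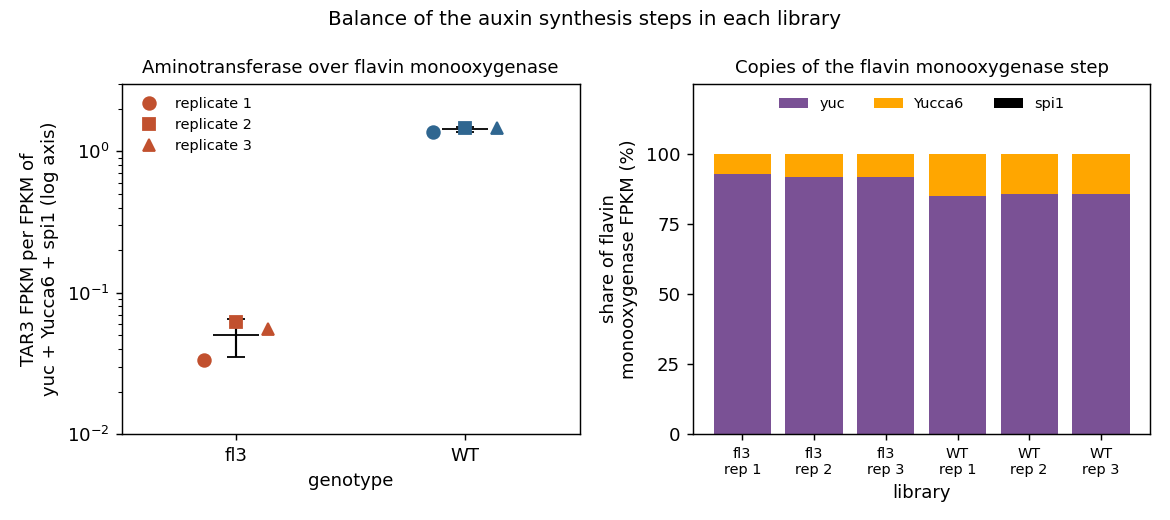
Left, TAR3 FPKM per summed FPKM of yuc, Yucca6 and spi1 in each library on a log axis, with the mean and SD of 3 libraries; right, shares of yuc, Yucca6 and spi1 in their summed FPKM in each library, where the spi1 bar is too thin to see. The ratio is 0.0334 to 0.0620 in fl3 and 1.37 to 1.47 in WT. Of the summed FPKM of these flavin monooxygenase members, yuc holds 91.7% or more in fl3 against at most 85.8% in WT.

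By level within a genotype, the order in fl3 was yuc, Yucca6, TAR3 and spi1, and the order in WT was TAR3, yuc, Yucca6 and spi1. No neighbours in either order overlapped between libraries. The closest pair was Yucca6 and TAR3 in fl3, where the lowest Yucca6 library had 46.8 FPKM and the highest TAR3 library 36.6 FPKM. The other 5 YUCCA genes with a name were hardly detected. Yucca2, Yucca7, Yucca10 and Yucca12 were listed at 0 in all 6 libraries, and Yucca3 reached at most 0.0871 FPKM, in fl3, and was listed at 0 in all WT libraries. No further TAR gene carried a name in the reference table, so the first step is described by TAR3 alone. YUCCA genes without a name there could not be looked up, so the second step is described by named genes alone.

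The rest of the pathway was read from a list of auxin genes found by symbol. Without the 4 members it held 49 identifiers, of which 23 could be tested; 11 rose, 5 fell and 7 did not pass. The share called was 69.6%, close to the 67.3% of all tested genes, and the median log2 fold change was 0.09 against 0.14 over all. With quantile normalization 9 rose and 5 fell, and median-of-ratios scaling gave the same counts. On the log2(FPKM + 1) scale the fold changes ran from -0.57 to 1.38. By the ratio of mean FPKM, ARF18 at 3.06 was above Yucca6 at 2.90.

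Upstream of TAR3, the tryptophan synthase beta subunits moved apart. The gene orp2 (GRMZM2G005024) had 42.5, 44.9 and 45.8 FPKM in fl3, against 28.7, 29.5 and 28.0 FPKM in WT, and rose by 0.61 on the log2 scale (limma adjusted p = 1.99e-05). Its partner orp1 (GRMZM2G169593) had 27.0, 27.3 and 29.7 FPKM in fl3, against 35.5, 31.8 and 33.8 FPKM in WT, and was lower by a log2 fold change of -0.26 (limma adjusted p = 0.00696). The genotypes did not overlap for either gene, as was so for 71.7% of all tested genes. The higher of the pair was orp2 in fl3 and orp1 in WT. The alpha subunit gene TSA (GRMZM5G841619), named after its values were seen, averaged 102 ± 4.49 FPKM in fl3 and 92.1 ± 3.96 FPKM in WT (SD, n = 3 each; limma adjusted p = 0.0524). The indole-forming genes igl1 and bx1, of defence metabolism, did not exceed 0.217 FPKM in any library.

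Downstream of the hormone, iaglu (GRMZM2G024131), which encodes the enzyme that joins auxin to glucose, fell. It had 90.1, 83.3 and 98.1 FPKM in fl3, against 153, 123 and 129 FPKM in WT, with a log2 fold change of -0.57 (SE 0.09, limma adjusted p = 0.000692). A GH3 gene (GRMZM2G378106), of the family that joins auxin to amino acids, had 8.54 ± 1.08 FPKM in fl3 and 8.80 ± 0.71 FPKM in WT (SD, n = 3 each; limma adjusted p = 0.712). None of the 11 listed transport identifiers reached the minimum for testing. The one with the highest value in a single library was the auxin influx carrier aux1 (GRMZM2G129413), named after its values were seen, at 0.681 to 1.01 FPKM in fl3 and 0.121 to 0.235 FPKM in WT.

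Of the 27 listed perception and response genes 19 could be tested, and 10 rose, 3 fell and 6 did not pass. The share called, 68.4%, was close to the 67.3% of all tested genes. The auxin response factors, transcription factors that bind auxin-responsive promoters, made up 16 of these, with 8 up and 2 down, or 6 up and 2 down with quantile normalization and likewise with median-of-ratios scaling. Of these, 62.5% were called, again close to the share of all tested genes. The highest rises among those with a mean of at least 5 FPKM were those of ARF18 (GRMZM2G035405), ARF16 (GRMZM2G028980) and ARF9 (GRMZM2G073750), with log2 fold changes of 1.38, 1.15 and 1.08. The auxin-binding protein gene abp1 (GRMZM2G116204) had 91.5, 86.7 and 103 FPKM in fl3, against 47.1, 47.0 and 46.6 FPKM in WT, a log2 fold change of 0.98 (limma adjusted p = 4.96e-06). The 3 response genes that fell, named after their values were seen, were ARF1 (GRMZM2G169820), ARF2 (GRMZM2G153233) and abp4 (GRMZM2G064371). Their log2 fold changes were -0.498, -0.272 and -0.415.

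A group of genes with numbered AUX symbols was added after the tables had been opened. The symbols were read as those of the Aux/IAA family, repressors that are degraded when the cell perceives auxin, but the reference table holds no description against which to check this. Of 16 identifiers 5 could be tested, with 2 up, 2 down and 1 not passed. Among all 17272 tested genes 67.3% were called, so calls among these 5 are no result about the group by themselves. AUX17 (GRMZM2G079957) averaged 3.76 ± 0.639 FPKM in fl3 and 1.18 ± 0.106 FPKM in WT, and AUX1 (GRMZM2G000158) averaged 0.757 ± 0.444 FPKM in fl3 and 2.56 ± 0.145 FPKM in WT (SD, n = 3 each). Their log2 fold changes were 1.12 and -1.05, with limma adjusted p of 4.74e-05 and 0.000548. Both were chosen after their values were seen.

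**Figure D4:**
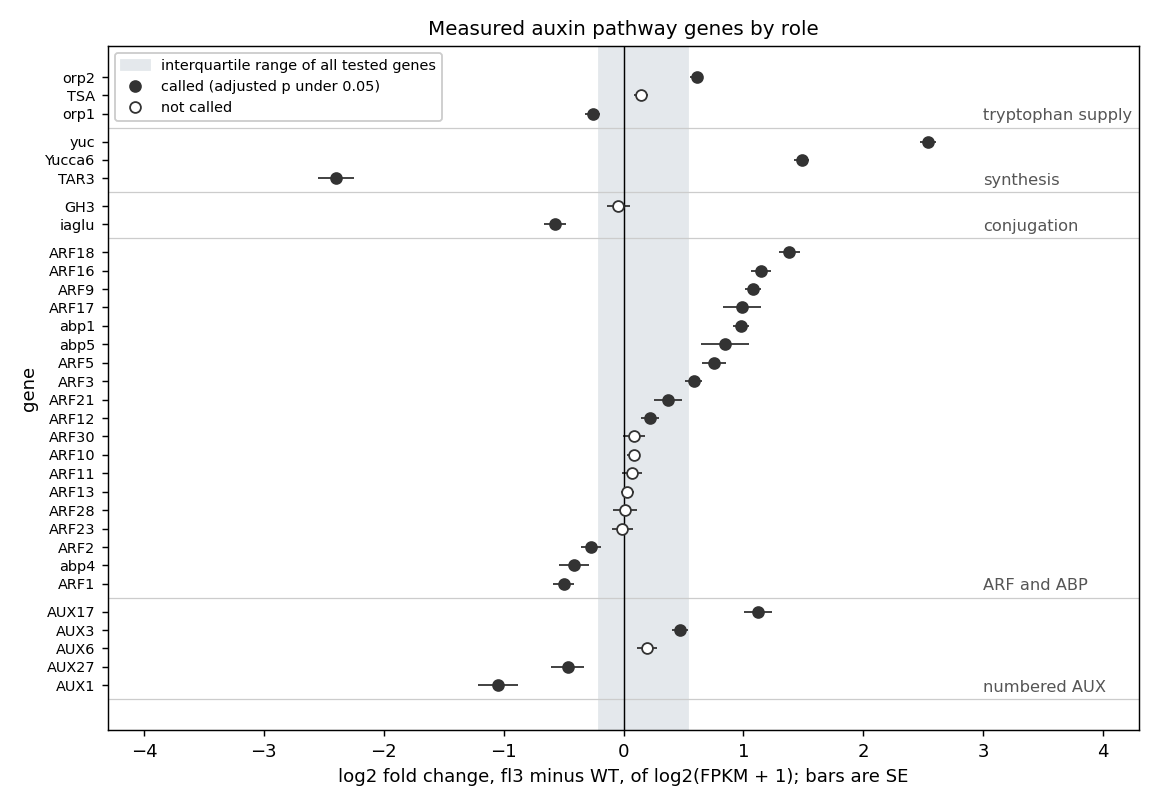
Log2 fold change, fl3 minus WT, with SE for each measured auxin gene, grouped by role from tryptophan supply at the top to the added genes with numbered AUX symbols at the bottom; filled points were called and the grey band is the interquartile range of all tested genes. The synthesis genes yuc at 2.54, Yucca6 at 1.48 and TAR3 at -2.40 can be set beside the other roles, which run from -1.05 for AUX1 to 1.38 for ARF18 on this scale.

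Genes with a pattern most like each member were sought among genes with an informative name and a mean of at least 5 FPKM. The measure was the root mean square difference of log2(FPKM + 1) over the 6 libraries, each gene centred on its own mean. For yuc the nearest of 1289 genes were TMT (GRMZM2G035213), GP (GRMZM2G135893) and the dehydroascorbate reductase dhar3 (GRMZM2G035502), at 0.074, 0.083 and 0.090. Of these, TMT averaged 52.2 ± 6.89 FPKM in fl3 and 7.69 ± 0.618 FPKM in WT (SD, n = 3 each). GP averaged 14.5 ± 1.32 FPKM in fl3 and 1.38 ± 0.042 FPKM in WT (SD, n = 3 each). Its WT level is low, so the log2(FPKM + 1) scale compresses its difference more than that of yuc.

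For Yucca6 the nearest were BRK3 (GRMZM5G886363), the receptor kinase cr4 (GRMZM2G051637) and GPDH4 (GRMZM6G161711), at 0.057, 0.071 and 0.079. For TAR3 they lay farther off, at 0.182, 0.202 and 0.206. They were the plasma-membrane aquaporin PIP2-1 (GRMZM2G014914), the alpha-zein z1A2_3 (GRMZM2G026939) and MADS11 (GRMZM2G139073). PIP2-1 had 11.5, 14.5 and 14.4 FPKM in fl3, against 64.6, 57.7 and 62.9 FPKM in WT; like TAR3, it was lowest in fl3 replicate 1. Since alpha-zein genes are close copies of each other, the level of z1A2_3 alone is uncertain.

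For spi1, whose log2(FPKM + 1) values are compressed by its low level, the nearest genes were CslF6-1 (GRMZM2G110145), NF-YA4 (GRMZM5G853836) and ACK2 (GRMZM2G143602), at 0.047, 0.061 and 0.064. CslF6-1, of the family that makes mixed-linkage glucan of the cell wall, had 20.9, 26.4 and 25.3 FPKM in fl3 and 13.4, 12.2 and 12.2 FPKM in WT. Like spi1, it was lowest in replicate 1 among the fl3 libraries.

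The 4 members lie on different chromosomes in the reference assembly. Neighbours were sought there among tested genes that matched exactly 1 gene of the reference, so other tested genes were passed over. The 5 nearest on each side were taken as neighbours, a choice made after the data were seen. Their counts are to be read against the 43.5% of all tested genes that rose and the 23.8% that fell. Of the 10 neighbours of yuc 5 rose, 1 fell and 4 did not pass, with log2 fold changes from -0.48 to 1.02. For Yucca6 6 rose and 2 fell, from -0.42 to 0.97. For TAR3 7 rose and 2 fell, from -1.46 to 1.77. For spi1 7 neighbours rose and 1 fell, from -0.60 to 1.76. All these ranges are on the log2(FPKM + 1) scale, which compresses neighbours of low level as it does spi1.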

How the data were processed

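RNA of 3 fl3 and 3 WT libraries was measured by Illumina sequencing. The authors deposited 1 table of FPKM values per library. The submitters' processing notes name FastQC, TopHat, Bowtie2 and the build B73 RefGen_v3; which tool made the FPKM values, on what annotation, and whether strand was used, is not stated in the sources used here. Low values do not fall into whole-read steps: between libraries, at most 7.31% of low genes had a ratio within 1% of the most frequent one. Counts were therefore not recovered.

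Genes averaging at least 1 FPKM were fitted as log2(FPKM + 1) with limma 3.58.1 in R 4.3.3 (eBayes with trend, genotype as the only term), and Benjamini-Hochberg adjusted p under 0.05 was called. Tested on simulated data with 17272 genes, the fit called 96% of genes changed by 1 and 69% of those changed by 0.5 on the log2 scale. These rates do not carry over to the real data, where most genes differed. Single values were compared by exact permutation in SciPy 1.17.1; tables were handled with pandas 2.3.3 in Python 3.11.15.

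Names came from NCBI RefSeq's table for Zm-B73-REFERENCE-NAM-5.0, which matched 18906 of 39448 identifiers, 521 of them to more than 1 gene. As its build differs from that of the files, none of its coordinates are given. Symbols of actin-binding proteins and of the ADP-ribosylation factor arf1 were dropped from the auxin list. The members and lists were chosen with earlier results of these data known. Genes named are the members, each role's called genes of largest change with a mean of at least 5 FPKM (at most 4), measured family members, and the 3 nearest genes in pattern; others are marked. Alternatives covered the pseudocount, filter, scaling, variance model, library weights, replicate block and leaving out each library.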

Additional observations from a re-analysis of the deposited data

How the results depend on the processing

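TAR3 stayed lower and yuc and Yucca6 stayed higher in fl3, each past the threshold, under all 17 alternatives run for them. Log2 fold changes ran from -2.56 to -2.19 for TAR3, from 2.37 to 2.61 for yuc and from 1.33 to 1.53 for Yucca6, and the highest limma adjusted p was 5.42e-05, 3.89e-06 and 1.71e-05. The log2 difference of spi1 depends on the pseudocount by construction, at 2.81 with 0.1 and 1.38 with 0.5, and was 0.77 under quantile normalization, whose cause was not tested. With a mean of at least 5 FPKM, where fewer genes are tested, 7675 genes were called, 4771 of them higher, and 3 other auxin genes were lower. Per FPKM of yuc alone, which leaves out Yucca6 and spi1, TAR3 stood at 1.67 in WT, and under quantile normalization the yuc share in WT was 85.04%. Leaving out 1 library at a time gave 10706 to 11176 called genes, 9 to 11 other auxin genes higher and 4 to 5 lower, and a spi1 difference of 0.84 to 0.96. It gave ratios of TAR3 to flavin monooxygenase of 0.0445 to 0.0588 in fl3 and 1.41 to 1.46 in WT, and yuc shares of 91.8% to 92.4% in fl3 and 85.4% to 85.8% in WT.

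Replicate numbers are shared by the genotypes. Correlations of deviations were -0.153, 0.0716 and -0.0227 for libraries numbered 1, 2 and 3. Over all pairs of an fl3 and a WT library they ran from -0.153 to 0.135. With 3 libraries per genotype, this cannot show whether same-numbered libraries were handled together. With the replicate block 11137 genes were called, and log2 fold changes were 2.54 for yuc, 1.48 for Yucca6 and -2.40 for TAR3, all past the threshold. Not every library correlated best with its own number. Depth is unknown, which limits what can be said of spi1 in WT.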
